A study of Mus musculus with 12 samples.

Results

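The lung response to abdominal sepsis was described across all measurable genes, from 3 lung libraries of mice that underwent cecal ligation and puncture (CLP) and 3 lung libraries of mice that underwent sham surgery. CLP ties off and perforates the cecum, so that gut content leaks into the abdomen. The description covers every gene that passed a filter on low counts, which was 15441 of the 55414 gene identifiers in the count table, and no measured difference between the groups entered that choice. The 6 lung libraries belong to a series of 12 libraries, in which the other 6 are CLP and sham livers taken at the same time. All groups were wild-type C57BL/6J mice housed in a specific pathogen-free facility, and lungs and livers were taken 6 h after surgery and stored in RNAlater. The sources used here give no age, and the labels number the libraries within a group without stating that they came from different mice; the p-values therefore measure only how far these samples spread, which may be technical variation.

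Gas exchange takes place in the alveolus, where flat type 1 epithelial cells lie against a dense capillary bed and cuboidal type 2 cells secrete surfactant. The capillary bed holds aerocytes, which are specialised for gas exchange, and general capillary cells, which regulate vascular tone and renew the bed, and both rest on pericytes and fibroblasts. In sepsis the lung is an organ known for early leukocyte retention and loss of barrier function, and its inflammatory genes are well described, so the account below is centred on structural cells, signalling, and cellular machinery.

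Total counts per lung library ran from 11298109 to 13590527. Levels are given as CPM, which are counts divided by library size after scaling across the lung libraries. A log2 fold change is the difference in log2 level, CLP minus sham, and is followed by its approximate standard error, with n = 3 libraries per group throughout. Lung markers were abundant in all 6 lung libraries: on library totals, surfactant protein C (Sftpc) had 9949 to 14008 CPM, and Ager, a marker of type 1 cells, had 1057 to 2006 CPM. Of markers of other tissue, liver Alb had 17.1 to 88.0 CPM and heart Myh6 had 9.21 to 334 CPM. Heart muscle runs along the pulmonary veins, and the summed level of 14 heart muscle genes was 704.9, 604.2 and 577.0 CPM in sham and 311.9, 901.3 and 81.6 CPM in CLP libraries, with 0 of the 14 called; without CLP replicate 2, which had the highest sum, 6 were lower. Leukocyte markers moved with the groups: 14 neutrophil markers together had 1053 to 1174 CPM in sham and 7542 to 10982 CPM in CLP libraries. In bulk RNA, fewer cells of a type and less RNA per cell cannot be told apart, nor can more cells and more RNA per cell. The part of this leukocyte shift in the lower levels of structural genes was not tested. Its part in the rises of the pathway and family lists below was not tested either.

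After CLP, 3698 genes were higher and 3850 were lower at an adjusted p below 0.05, which is 23.9% and 24.9% of the genes tested. These percentages are the background for the counts of every gene group below. Groups share members: Notch3 is in the pericyte and Notch lists, and Dll4 and Hey1 are in the arterial and Notch lists. Counts of such groups are therefore not separate results. With scaling by library totals alone, the median log2 fold change of all genes moved from -0.03 to -0.13, and the share of called genes that were higher moved from 48.99% to 38.05%, so group medians are given beside the median of -0.03. The rises reached further than the falls: 224 genes were higher by at least 8-fold and 17 were lower by as much. Among 1117 long non-coding RNAs tested, 187 (16.74%) were higher and 281 (25.16%) lower, while of 14081 protein-coding genes 24.52% were higher and 25.2% lower. The nuclear RNA Neat1, which scaffolds paraspeckles, had 3189, 2689 and 2578 CPM in the sham libraries and 1448, 1871 and 1159 CPM in the CLP libraries (log2 fold change -0.92 ± 0.18, adjusted p = 0.00384), with no overlap between the groups.

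**Figure D1:**
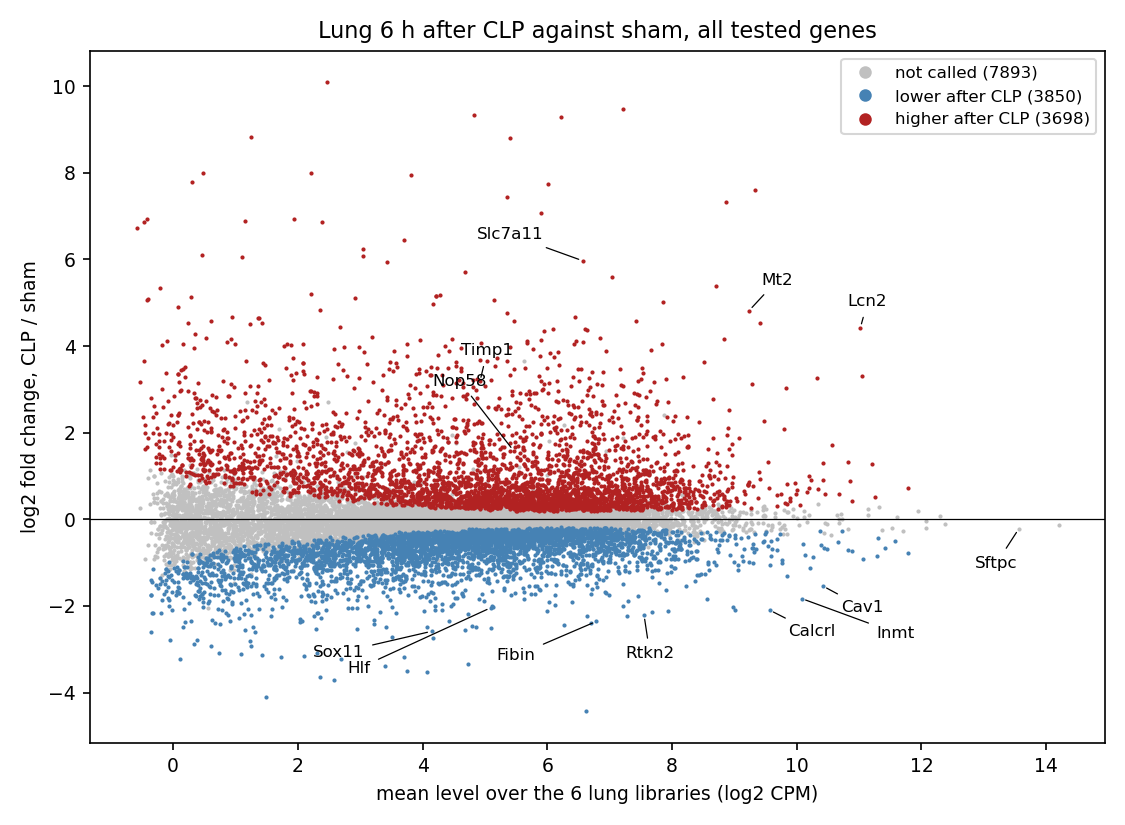
Each point is 1 of the 15441 tested genes, with its mean level over the 6 lung libraries on the x axis (log2 CPM) and its log2 fold change (CLP over sham) on the y axis. Red points are the 3698 genes called higher and blue points the 3850 called lower; the largest changes are rises, while Sftpc, among the most abundant genes, lies near 0.

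The genes with the largest gain in CPM were not all inflammatory. Lyve1 (ENSMUSG00000030787), the hyaluronan receptor of lymphatic vessels and of a class of tissue macrophages, had 762, 797 and 560.1 CPM in sham and 2532, 2608 and 1792 CPM in CLP lung (log2 fold change 1.71 ± 0.19, adjusted p = 0.000298). The lowest CLP library was above the highest sham library; of the 9 lymphatic endothelial markers as a list, 2 rose and 4 fell. Akap12, a scaffold for protein kinase A that supports endothelial barrier function, had 214, 179 and 204 CPM in sham lung and 2117, 2025 and 709 CPM after CLP (log2 fold change 3.02 ± 0.41, adjusted p = 0.00113). Clic4, a chloride intracellular channel protein of endothelium, had 1101, 1052 and 948 CPM in the sham libraries and 2530, 2846 and 2341 CPM in the CLP libraries (log2 fold change 1.31 ± 0.12, adjusted p = 0.000128). In both genes the groups were separate, with replicate 3 the lowest of the CLP libraries.

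Among the 10 largest falls in mean CPM were the nuclear RNA Neat1, the widely expressed spectrin Sptbn1 (-0.85 ± 0.15) and several genes known from endothelium or fibroblasts. Epas1 (ENSMUSG00000024140), which encodes the hypoxia-inducible factor HIF-2 alpha of lung endothelium, had 4307, 4566 and 4443 CPM in sham and 2487, 2120 and 3136 CPM in CLP lung (log2 fold change -0.78 ± 0.15, adjusted p = 0.00362). Calcrl (ENSMUSG00000059588), the receptor for adrenomedullin and calcitonin gene-related peptide, had 1319, 1097 and 1270 CPM in sham lung and 260.3, 236 and 365 CPM after CLP (log2 fold change -2.10 ± 0.18, adjusted p = 9.95e-05). Inmt, a methyltransferase of lung fibroblasts, had 1648, 1637 and 1786 CPM in the sham libraries and 331, 405 and 691 CPM in the CLP libraries (log2 fold change -1.83 ± 0.26, adjusted p = 0.00118). For each of these genes every CLP library lay under every sham library. Ace, the angiotensin-converting enzyme on capillary endothelium, had 2380, 2266 and 2126 CPM in sham and 1284, 1262 and 1590 CPM in CLP lung (log2 fold change -0.71 ± 0.12, adjusted p = 0.0021). The lowest p-values among falls included that of Tppp, a tubulin polymerisation-promoting protein, with 57.4, 52.0 and 56.1 CPM in sham lung and 12.9, 13.8 and 14.8 CPM after CLP (log2 fold change -2.0 ± 0.09, adjusted p = 1.14e-05). Myct1, a membrane protein of endothelium, had 60.8, 54.4 and 58.1 CPM in the sham libraries and 8.63, 10.6 and 11.3 CPM in the CLP libraries (log2 fold change -2.51 ± 0.11, adjusted p = 1.14e-05), and its 3 CLP values lay within a narrow band. Irs1, the insulin receptor substrate, fell as well (log2 fold change -2.19 ± 0.13, adjusted p = 3.02e-05).

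Most markers of type 1 alveolar cells fell, while most markers of type 2 and airway cells were not called. Of 18 type 1 markers, 12 fell and 0 rose (median -0.53), with 9 to 16 lower over the alternative analyses. Their summed level went from 14687 to 15592 CPM in sham to 7709 to 11318 CPM in CLP libraries. Cav1 (ENSMUSG00000007655), the caveolin shared by type 1 cells and capillaries, had 2204, 2014 and 1905 CPM in sham and 560.4, 529 and 1014 CPM in CLP lung (log2 fold change -1.54 ± 0.25, adjusted p = 0.00186). The values of CLP replicates 1 and 2 were close together and replicate 3 lay between them and sham. Akap5, a kinase anchor, had 423, 368 and 406 CPM in sham lung and 72.5, 80.0 and 125 CPM after CLP (log2 fold change -2.11 ± 0.20, adjusted p = 0.000211). Rtkn2, rhotekin-2, a marker of type 1 cells, had 296, 320.4 and 308 CPM in the sham libraries and 42.6, 69.8 and 87.4 CPM in the CLP libraries (log2 fold change -2.21 ± 0.24, adjusted p = 0.000383). Counts of Rtkn2 may hold reads of an antisense transcript that overlaps its exons. Ager, the receptor for advanced glycation end products, changed less, with 1917, 1942 and 1864 CPM in sham and 1352, 1089 and 1548 CPM in CLP lung (log2 fold change -0.52 ± 0.14, adjusted p = 0.0138), and Hopx, a homeodomain regulator of type 1 cells, was not called (log2 fold change -0.34 ± 0.13, adjusted p = 0.0608).

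Of 15 type 2 markers, 3 fell and 2 rose (median -0.05), and the rises were lost with scaling by library totals. Sftpc had 12481, 13559 and 12906 CPM in sham lung and 11694, 10249 and 11448 CPM after CLP (log2 fold change -0.22 ± 0.12, adjusted p = 0.162); the CLP libraries lay under the sham libraries, but the difference was not called. Sftpa1, another surfactant protein, was likewise not called (log2 fold change -0.05 ± 0.12, adjusted p = 0.759). The 3 members that fell were Abca3, the lipid pump of lamellar bodies (-0.42 ± 0.10), Lpcat1, an enzyme of surfactant lecithin synthesis (-0.43 ± 0.12), and Etv5, a transcription factor that maintains type 2 cells (-0.54 ± 0.10). Lpcat1 lost its call without CLP replicate 2 (adjusted p = 0.0527) or sham replicate 3 (0.0958). In the list for surfactant lipid synthesis, 8 of 22 members fell and 4 rose; 4 fell when any library other than CLP replicate 3 was left out, and 5 rose without CLP replicate 2. Among 14 club and secretory markers 0 were called in either direction at adjusted p below 0.05 (at most 3 lower and 1 higher under an alternative), and the secretoglobin Scgb1a1 had 17470, 22221 and 19639 CPM in the sham libraries and 15387, 17485 and 21100 CPM in the CLP libraries (log2 fold change -0.14 ± 0.16, adjusted p = 0.522), with overlapping groups. Of 30 ciliated cell markers, 2 rose and 2 fell, or 7 without CLP replicate 2, and Foxj1, the master factor of motile cilia, was not called (0.06 ± 0.22).

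**Figure D2:**
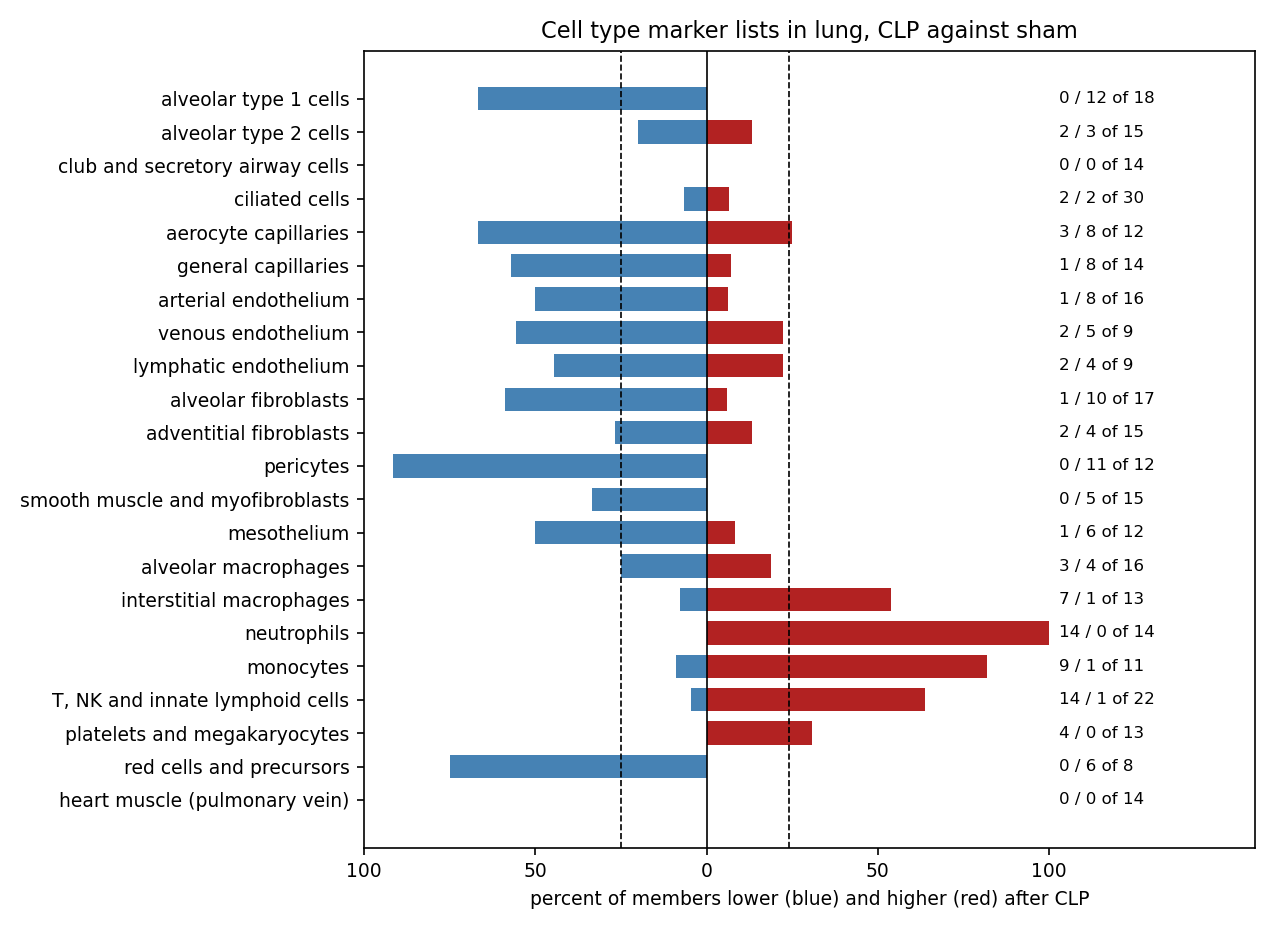
For each cell type marker list, the red bar to the right is the percent of tested members called higher after CLP and the blue bar to the left the percent called lower; the numbers at the right are members higher, lower and tested. Dashed lines mark the background of 23.9% and 24.9% of all tested genes; type 1 cells, capillaries, pericytes and red cells extend to the left, and neutrophils, monocytes and lymphoid cells to the right.

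Markers of both capillary cell types fell more often than they rose. Of 12 aerocyte markers, 8 fell and 3 rose (median -0.91). Kdr (ENSMUSG00000062960), the main receptor for vascular endothelial growth factor, had 512, 425 and 528 CPM in sham and 192, 206 and 204 CPM in CLP lung (log2 fold change -1.28 ± 0.10, adjusted p = 8.84e-05). Its co-receptor Nrp1 had 358, 325 and 407 CPM in sham lung and 106, 93.0 and 152 CPM after CLP (log2 fold change -1.64 ± 0.18, adjusted p = 0.000391). Ednrb, the endothelin receptor that aerocytes carry, had 154, 134 and 152 CPM in the sham libraries and 49.1, 41.5 and 63.5 CPM in the CLP libraries (log2 fold change -1.52 ± 0.15, adjusted p = 0.000208). In all of these the CLP libraries lay apart from and under the sham libraries. Fibin had the largest fall of the list, with 211, 178 and 164 CPM in sham and 25.5, 28.9 and 53.7 CPM in CLP lung (log2 fold change -2.36 ± 0.28, adjusted p = 0.000649). The risen members were Sirpa (0.61 ± 0.13), the receptor for CD47 that myeloid cells carry abundantly, the cytoskeletal protein periaxin, Prx (0.37 ± 0.09), and the peptide hormone Apln (0.81 ± 0.26). Apln lost its call in 8 of the alternative analyses, with scaling by library totals among them (adjusted p = 0.0545).

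Of 14 general capillary markers, 8 fell and 1 rose (median -0.66). Tek (ENSMUSG00000006386), the angiopoietin receptor TIE2, had 447, 384 and 502 CPM in sham lung and 147, 105 and 207 CPM after CLP (log2 fold change -1.54 ± 0.24, adjusted p = 0.00179). Ptprb, the phosphatase that restrains TIE2, fell as well (log2 fold change -1.12 ± 0.18, adjusted p = 0.0016). The 1 member that rose was Cd93 (log2 fold change 0.90 ± 0.18, adjusted p = 0.00378), a lectin-like receptor found on endothelium and myeloid cells. Of 16 arterial markers, 8 fell and 1 rose. Sox17, a factor of arterial identity, had 59.1, 58.1 and 68.1 CPM in the sham libraries and 28.1, 28.6 and 28.1 CPM in the CLP libraries (log2 fold change -1.13 ± 0.09, adjusted p = 7.63e-05), and its CLP values were nearly equal. Dll4, the arterial Notch ligand (-1.21 ± 0.15), and Hey1, a Notch target (-1.92 ± 0.29), also fell, while the netrin receptor Unc5b rose (log2 fold change 0.84 ± 0.21, adjusted p = 0.0112).

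Venous markers split. Ackr1, the atypical chemokine receptor of postcapillary venules, was near the counting floor in sham, with 0.244, 0.150 and 0.299 CPM in sham and 11.4, 9.95 and 5.01 CPM in CLP lung (log2 fold change 5.20 ± 0.46, adjusted p = 0.000121). All CLP libraries were far above sham, and reads of the neighbouring gene Cadm3, which overlaps it on the same strand, may be included. Of the other venous genes, Nr2f2, the factor that specifies veins (-0.68 ± 0.09), and Vwf, von Willebrand factor (-0.66 ± 0.13), fell; in total 5 of 9 fell and 2 rose.

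Transcription factors that keep endothelial identity moved in both directions, 6 of 22 higher and 8 lower, and 2 were higher and 9 lower with scaling by library totals. Bcl6b, an endothelial repressor, had 20.5, 18.5 and 24.8 CPM in sham lung and 96.4, 82.5 and 51.4 CPM after CLP (log2 fold change 1.85 ± 0.24, adjusted p = 0.000781). Foxf1, which is needed for capillary formation in the lung, had 162, 186 and 214 CPM in the sham libraries and 291, 294 and 381 CPM in the CLP libraries (log2 fold change 0.78 ± 0.14, adjusted p = 0.00251). Both rose in every CLP library, whereas Sox18 (-1.24 ± 0.10) and the ETS factor Erg (-0.80 ± 0.14) fell.

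Genes of vascular tone were lower more often than higher: 14 of 28 fell and 6 rose (median -0.33). Among the receptors that rose were both receptors for bradykinin, the peptide that dilates vessels and opens the barrier: Bdkrb2 had 5.04, 4.87 and 4.11 CPM in sham and 47.8, 62.1 and 19.3 CPM in CLP lung (log2 fold change 3.21 ± 0.44, adjusted p = 0.00134). Bdkrb1 rose by less (log2 fold change 1.39 ± 0.23, adjusted p = 0.00169). The prostacyclin receptor Ptgir rose (log2 fold change 1.19 ± 0.24, adjusted p = 0.00476), as did adrenomedullin, Adm (log2 fold change 0.85 ± 0.22, adjusted p = 0.0137, and 0.0562 without sham replicate 2), while Ramp2, which pairs with Calcrl to form the adrenomedullin receptor, fell (log2 fold change -1.44 ± 0.20, adjusted p = 0.00102). Npr1, the natriuretic peptide receptor that makes cyclic GMP, had 175, 192 and 207 CPM in sham lung and 93.6, 72.7 and 103 CPM after CLP (log2 fold change -1.09 ± 0.13, adjusted p = 0.000419), and Npr3, the clearance receptor for the same peptides, rose (log2 fold change 0.73 ± 0.14, adjusted p = 0.00406). The subunits of soluble guanylyl cyclase, which answers nitric oxide, fell together: Gucy1a1 had 329.9, 269 and 333 CPM in the sham libraries and 167, 146 and 182 CPM in the CLP libraries (log2 fold change -0.91 ± 0.12, adjusted p = 0.000583), and Gucy1b1 changed by -0.78 ± 0.11. Both subunits are also counted in the pericyte list. Among 25 phosphodiesterases and adenylyl cyclases, which break down and make cyclic nucleotides, 12 fell and 3 rose. Pde4b, the form known in inflammatory cells, rose (log2 fold change 0.94 ± 0.18, adjusted p = 0.00372) and its relative Pde4a fell (log2 fold change -1.32 ± 0.15, adjusted p = 0.000331).

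Cell junction genes did not move as a block, with 7 of 28 higher and 8 lower, and 4 and 11 with scaling by library totals. Cldn5, the claudin of endothelial tight junctions, had 253, 231 and 250.2 CPM in sham and 518, 464 and 368 CPM in CLP lung (log2 fold change 0.88 ± 0.13, adjusted p = 0.000986). Gja1, the gap junction protein connexin 43, rose too (log2 fold change 1.45 ± 0.18, adjusted p = 0.00056). Jup, plakoglobin, had 438, 431 and 461 CPM in sham lung and 229, 227 and 248 CPM after CLP (log2 fold change -0.92 ± 0.08, adjusted p = 0.000133), and the tight junction genes Tjp1 (-0.58 ± 0.13), Ocln (-0.42 ± 0.10) and the alveolar claudin Cldn18 (-0.42 ± 0.14) fell by smaller amounts. Cldn18 lost its call when any of 5 libraries was left out (adjusted p 0.0738 to 0.101). Cdh5, VE-cadherin, was not called (log2 fold change 0.35 ± 0.15, adjusted p = 0.0865). In alveolar fluid and ion transport, 6 of 20 rose and 3 fell, and 5 and 5 with scaling by library totals. The sodium pump subunit Atp1b3 (0.81 ± 0.09) rose, and the sodium channel subunit Scnn1a and the water channel Aqp1 were not called (-0.22 ± 0.11 and -0.08 ± 0.15).

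Of the mesenchymal lists, pericytes had the highest share of falls: 11 of 12 markers fell and 0 rose (median -0.63). Notch3, the Notch receptor of mural cells, had 157, 163 and 196 CPM in the sham libraries and 102, 105 and 99.6 CPM in the CLP libraries (log2 fold change -0.75 ± 0.10, adjusted p = 0.000579). Lamc3, a laminin chain, had 95.0, 107 and 78.8 CPM in sham and 33.1, 41.2 and 45.0 CPM in CLP lung (log2 fold change -1.24 ± 0.14, adjusted p = 0.000391). Pdgfrb, the growth factor receptor that defines mural cells, fell least among those called (log2 fold change -0.26 ± 0.09, adjusted p = 0.0393), and the call was lost with the replicate block (adjusted p = 0.0666), with a stricter filter of at least 1 CPM in 3 libraries (0.0633), with DESeq2 (0.0553) and when any of 5 single libraries was left out (adjusted p up to 0.206 without sham replicate 3). Of 15 smooth muscle markers, 5 fell and 0 rose (8 lower without CLP replicate 2 and 3 without sham replicate 3), with Myh11 not called (-0.10 ± 0.16).

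Growth factors that fibroblasts make for the epithelium were among the markers that fell. Of 17 alveolar fibroblast markers, 10 fell and 1 rose (median -0.46). Fgf10, a growth factor for alveolar epithelium, had 20.6, 18.5 and 24.1 CPM in sham lung and 6.69, 9.55 and 10.7 CPM after CLP (log2 fold change -1.24 ± 0.18, adjusted p = 0.00101). Wnt2, a Wnt ligand of lung mesenchyme, had 6.75, 6.51 and 12.2 CPM in the sham libraries and 2.02, 1.78 and 2.19 CPM in the CLP libraries (log2 fold change -2.09 ± 0.29, adjusted p = 0.000827). The 1 member that rose was the platelet-derived growth factor receptor Pdgfra, with 478, 408 and 499.7 CPM in sham and 746, 596 and 738 CPM in CLP lung (log2 fold change 0.59 ± 0.12, adjusted p = 0.00536), and its lowest CLP value was above the highest sham value. Fgf7, a related epithelial growth factor, fell (log2 fold change -1.31 ± 0.18, adjusted p = 0.000706), whereas Hgf, hepatocyte growth factor, rose (log2 fold change 0.97 ± 0.21, adjusted p = 0.00728). In the list of growth factors and receptor tyrosine kinases, 16 of 41 fell and 7 rose. Of 12 mesothelial markers 6 fell and 1 rose, the riser being Bmper, a modulator of BMP signalling (log2 fold change 0.92 ± 0.08, adjusted p = 0.000121).

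**Figure D3:**
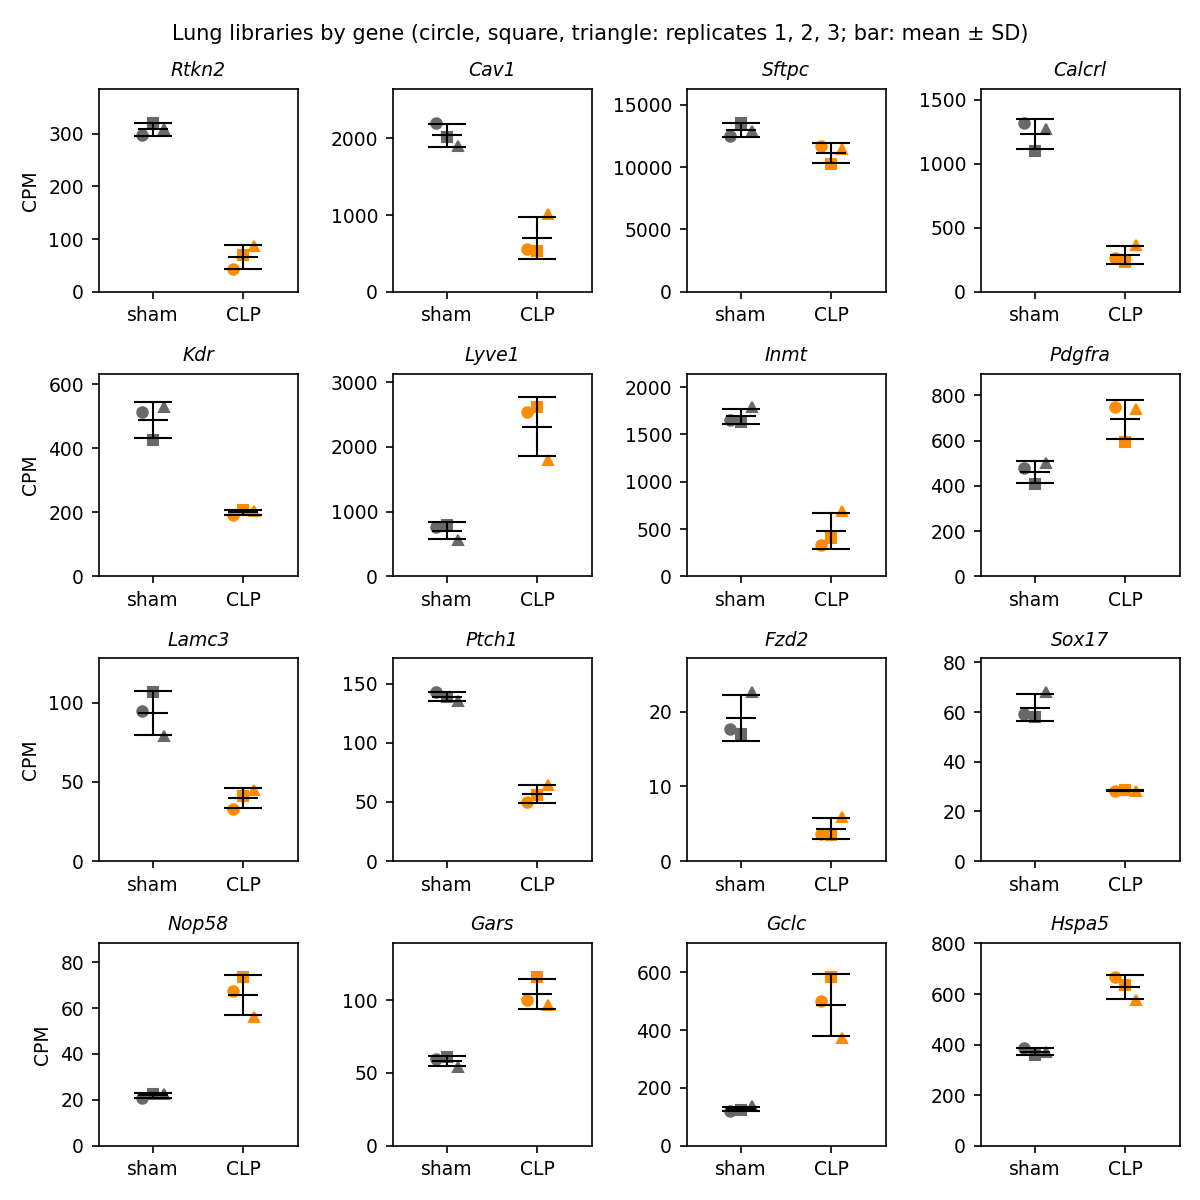
Levels in CPM (y axis, from 0) of 16 genes in the sham and CLP lung libraries, with 1 symbol per replicate and bars for the mean and SD of 3 libraries. In Calcrl and Kdr the CLP libraries lie under all sham libraries, in Lyve1 and Nop58 above them, and in Sftpc the groups differ little beside their level.

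Matrix proteases and their inhibitors were higher in 21 of 30 cases and lower in 3 (median 1.09). Timp1, an inhibitor of matrix metalloproteinases, had 6.99, 5.76 and 5.23 CPM in sham lung and 64.0, 52.2 and 47.2 CPM after CLP (log2 fold change 3.19 ± 0.16, adjusted p = 1.57e-05). Adamts9, an aggrecanase of endothelium, had 24.7, 27.2 and 25.5 CPM in the sham libraries and 234, 202 and 122 CPM in the CLP libraries (log2 fold change 2.85 ± 0.23, adjusted p = 0.000149). Adamts4, another aggrecanase, rose from 1.30, 0.823 and 0.523 CPM to 211, 80.8 and 61.3 CPM (log2 fold change 7.06 ± 0.73, adjusted p = 0.000649). Mmp8, Mmp9 and Mmp25 also rose (2.27 ± 0.14, 2.34 ± 0.20 and 3.66 ± 0.33), and these are enzymes that neutrophils carry, whose marker sum rose as given above; its part in these values was not tested. Mmp28, an epithelial metalloproteinase, went the other way, with 52.3, 49.2 and 44.9 CPM in sham and 6.77, 5.02 and 14.8 CPM in CLP lung (log2 fold change -2.48 ± 0.34, adjusted p = 0.00118). Of the large matrix molecules, the proteoglycan versican, Vcan, had 12.3, 12.9 and 19.4 CPM in sham lung and 198, 166 and 130.3 CPM after CLP (log2 fold change 3.47 ± 0.23, adjusted p = 7.35e-05), and the hyaluronan receptor Cd44 rose (log2 fold change 1.68 ± 0.17, adjusted p = 0.000243). Vcan is also in the list of monocyte markers, of which 9 of 11 rose and 1 fell (median 3.23); the part of monocytes in its value was not tested. Basement membrane genes were lower in 13 and higher in 5 of 28 cases, and the lower count ran from 7 without sham replicate 3 to 16 with scaling by library totals. Lamb1 (-0.72 ± 0.13) and the collagen chain Col4a4 (-0.79 ± 0.16) fell, and Lama5, a laminin of alveolar and vascular membranes, rose (log2 fold change 0.64 ± 0.13, adjusted p = 0.00397).

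In the Hedgehog, Wnt, Notch and BMP lists more genes fell than rose. In the Hedgehog list, 8 of 13 genes fell and 0 rose (median -0.92). Ptch1 (ENSMUSG00000021466), the Hedgehog receptor and a target of the pathway, had 143, 138 and 135 CPM in the sham libraries and 50.2, 55.6 and 64.7 CPM in the CLP libraries (log2 fold change -1.29 ± 0.10, adjusted p = 7.66e-05). Hhip, a decoy receptor that is also a target, had 43.9, 29.9 and 52.5 CPM in sham and 12.8, 14.4 and 24.9 CPM in CLP lung (log2 fold change -1.29 ± 0.30, adjusted p = 0.01, and 0.0815 with no low-count filter). The transducer Smo (-0.79 ± 0.13) and the transcription factor Gli2 (-1.84 ± 0.29) fell as well, so receptor, transducer and effector were all lower.

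Among 36 Wnt genes 17 fell and 2 rose (median -0.41). The receptor Fzd2 had 17.7, 17.0 and 22.6 CPM in sham lung and 3.58, 3.48 and 5.92 CPM after CLP (log2 fold change -2.15 ± 0.22, adjusted p = 0.000211). Its co-receptor Lrp5 fell (log2 fold change -0.93 ± 0.14, adjusted p = 0.00131), as did Rnf43, the ligase that removes such receptors from the surface (log2 fold change -1.15 ± 0.11, adjusted p = 0.000156). The 2 that rose were the secreted Wnt antagonist Sfrp1 (0.86 ± 0.13) and the transcription factor Tcf7 (0.56 ± 0.11), which T cells carry.

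Of 25 Notch genes 15 fell and 4 rose (median -0.42), and the receptors parted. Notch4, the endothelial receptor, had 261, 267 and 226 CPM in the sham libraries and 120.5, 121 and 142 CPM in the CLP libraries (log2 fold change -0.97 ± 0.10, adjusted p = 0.000241). Notch2 had 174, 192 and 174 CPM in sham and 325, 333 and 301 CPM in CLP lung (log2 fold change 0.83 ± 0.08, adjusted p = 0.000208), and in neither did the groups overlap. The ligand Jag2 fell (log2 fold change -0.82 ± 0.10, adjusted p = 0.000331), Dll1 rose (log2 fold change 1.36 ± 0.17, adjusted p = 0.000629), and Notch1 was not called (0.20 ± 0.08).

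Of 28 BMP genes 12 fell and 5 rose, with 8 to 15 lower over the alternatives. Acvrl1, the endothelial type I receptor ALK1, had 799.7, 796 and 800.5 CPM in sham lung and 429.5, 479 and 507 CPM after CLP (log2 fold change -0.76 ± 0.09, adjusted p = 0.000476). The inhibitory Smad6 fell (log2 fold change -0.66 ± 0.12, adjusted p = 0.00257), while Smad1, a signal transducer (1.02 ± 0.10), and Id2, a target gene (1.49 ± 0.13), rose. In the TGF-beta list the order was the opposite, with 10 of 25 higher and 6 lower, led by the activin subunit Inhbb (log2 fold change 4.08 ± 0.46, adjusted p = 0.000812).

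Genes of the YAP and TEAD pathway, named for the factors that answer cell stretch and contact, were lower in 10 of 20 cases and higher in 2 (median -0.31). Ccn2 (ENSMUSG00000019997), connective tissue growth factor, had 338, 374 and 286 CPM in the sham libraries and 61.4, 88.8 and 76.6 CPM in the CLP libraries (log2 fold change -2.14 ± 0.16, adjusted p = 6.93e-05). Amotl2, a pathway regulator and target, had 273, 307 and 296 CPM in sham and 164, 136 and 149 CPM in CLP lung (log2 fold change -0.97 ± 0.10, adjusted p = 0.00018). Ajuba, a LIM protein of the pathway, had 55.8, 53.4 and 57.5 CPM in sham lung and 28.8, 26.0 and 28.1 CPM after CLP (log2 fold change -1.01 ± 0.08, adjusted p = 7.86e-05), with little spread in either group. Tead1, the DNA-binding partner, was not called (-0.10 ± 0.11). The core TEAD sequence CATTCC, searched on both strands from 250 bases before to 50 after the start site, was in 12 of 19 RefSeq promoter windows of the listed genes (63.2%) and in 12.5% of the 14088 windows of all tested protein-coding genes. It was in 16.1% of windows of genes lower by at least 2-fold and 11.1% of those higher by as much. The list holds known targets of the pathway, so the 63.2% describes the list and not the response to CLP. The Ajuba promoter is shown because the gene's fall was steady and its window holds 2 matches, which are in capitals; the bases are GRCm38.p6 chr14:54577662-54577861, minus strand, and end at the base before the start site.
Ajuba: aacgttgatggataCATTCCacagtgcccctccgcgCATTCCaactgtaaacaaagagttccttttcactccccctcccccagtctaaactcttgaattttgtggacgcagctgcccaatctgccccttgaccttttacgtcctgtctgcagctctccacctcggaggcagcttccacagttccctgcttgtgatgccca

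Transcription factors of the lung mesenchyme and epithelium were lower in 21 of 35 cases and higher in 3 (median -0.37, with 14 to 23 lower over the alternatives). Sox11 had 29.4, 33.9 and 26.3 CPM in the sham libraries and 4.74, 2.91 and 7.37 CPM in the CLP libraries (log2 fold change -2.59 ± 0.28, adjusted p = 0.00032). Meis1, a homeobox factor, had 69.1, 64.4 and 70.4 CPM in sham and 17.6, 17.6 and 27.2 CPM in CLP lung (log2 fold change -1.71 ± 0.17, adjusted p = 0.000196). Sox9, a factor of distal lung progenitors, was near the counting floor in sham and rose, with 0.244, 0.299 and 0.597 CPM in sham lung and 3.89, 4.37 and 1.46 CPM after CLP (log2 fold change 3.06 ± 0.52, adjusted p = 0.00209). The size of this rise is uncertain because the sham values rest on few counts. Nkx2-1, the master factor of lung epithelium, had 141, 178 and 179.8 CPM in the sham libraries and 121, 116 and 133 CPM in the CLP libraries (log2 fold change -0.43 ± 0.11, adjusted p = 0.0127), and the call was lost without sham replicate 2 (adjusted p = 0.0543) or 3 (0.0712). By family, 23 of 37 homeobox and T-box genes fell and 1 rose (median -0.57; 15 lower without sham replicate 3), and 8 of 11 Sox genes fell and 1 rose. Of 406 genes named Zfp, Zbtb, Zscan or Zkscan, most of which encode C2H2 zinc finger proteins, 156 fell and 37 rose (median -0.23). Over the alternatives 106 to 196 were lower and 20 to 44 higher. Zfp36, which shares the name but is an RNA-binding protein with another type of zinc finger that speeds decay of cytokine messages, rose (log2 fold change 1.87 ± 0.18, adjusted p = 0.000177). Of 37 nuclear receptors 17 fell and 3 rose, with 11 lower without sham replicate 2 or 3. The retinoic acid receptor Rarg fell (log2 fold change -1.27 ± 0.09, adjusted p = 4.89e-05), the glucocorticoid receptor Nr3c1 was not called (-0.28 ± 0.12), and the inducible orphan receptor Nr4a1 rose, with 19.6, 50.3 and 34.4 CPM in sham and 416, 360.1 and 205 CPM in CLP lung (log2 fold change 3.23 ± 0.41, adjusted p = 0.00105).

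**Figure D4:**
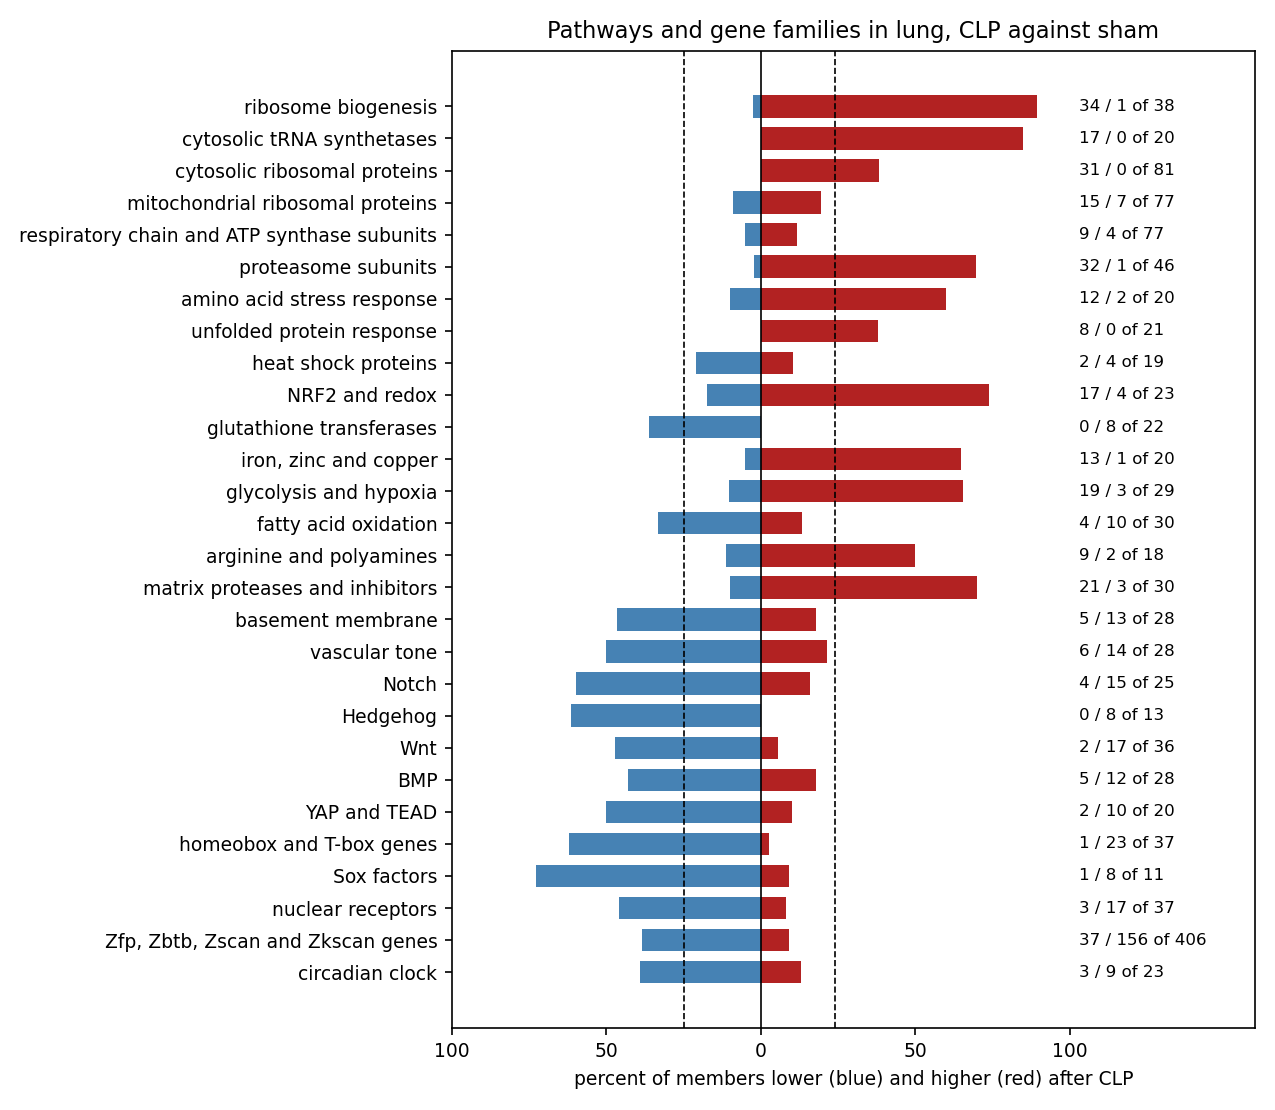
Percent of tested members called higher (red, right) and lower (blue, left) after CLP for 28 pathways and gene families, with members higher, lower and tested printed at the right and dashed lines at the background of 23.9% and 24.9%. Ribosome biogenesis, tRNA synthetases and the proteasome extend to the right, and Hedgehog, Sox and homeobox genes to the left.

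Genes that build ribosomes nearly all rose. Of 38 ribosome biogenesis genes, which make and assemble ribosomal RNA in the nucleolus, 34 rose and 1 fell (median 0.86), and 32 were higher with scaling by library totals. Nop58 (ENSMUSG00000026020), a core protein of nucleolar guide RNA particles, had 20.8, 22.6 and 22.5 CPM in sham lung and 67.4, 73.7 and 56.4 CPM after CLP (log2 fold change 1.58 ± 0.11, adjusted p = 5.48e-05). Rrp12, an assembly factor, had 6.99, 6.36 and 6.42 CPM in the sham libraries and 22.9, 28.4 and 18.3 CPM in the CLP libraries (log2 fold change 1.82 ± 0.17, adjusted p = 0.000157). Nucleolin, Ncl, had 296, 278 and 273 CPM in sham and 431, 469 and 441 CPM in CLP lung (log2 fold change 0.66 ± 0.08, adjusted p = 0.000489). All 3 genes were separated between the groups; the 1 member that fell was Ubtf, a factor of RNA polymerase I (log2 fold change -0.36 ± 0.08, adjusted p = 0.00624). Ribosomal proteins themselves moved less: 31 of 81 were called higher (median 0.20), and 15 with scaling by library totals, and genes of this family share reads with pseudogenes and are uncertain. Of 51 translation factors 27 rose and 3 fell, and of 46 proteasome genes 32 rose and 1 fell. The proteasome activator Psme2 (1.17 ± 0.11) and the immunoproteasome subunit Psmb8 (1.11 ± 0.11) rose, and so did Psmd6 of the constitutive regulatory particle (0.58 ± 0.07).

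Enzymes that load transfer RNAs with amino acids rose in 17 of 20 cases and fell in 0 (median 0.53). Vars, for valine, had 47.4, 50.8 and 49.7 CPM in sham lung and 99.7, 100.5 and 95.4 CPM after CLP (log2 fold change 1.00 ± 0.07, adjusted p = 5.48e-05). Gars, for glycine, had 59.3, 61.0 and 54.1 CPM in the sham libraries and 100.4, 116 and 96.8 CPM in the CLP libraries (log2 fold change 0.85 ± 0.09, adjusted p = 0.000274). Tars, for threonine, changed by 0.58 ± 0.08. In the list of the amino acid stress response, which the factor ATF4 drives when amino acids run short, 12 of 20 rose and 2 fell. Slc7a11 (ENSMUSG00000027737), the cystine importer, had 2.85, 2.54 and 3.51 CPM in sham and 286, 212 and 60.9 CPM in CLP lung (log2 fold change 5.97 ± 0.70, adjusted p = 0.00113). Asns, asparagine synthetase, had 14.5, 15.3 and 14.1 CPM in sham lung and 35.9, 30.0 and 39.8 CPM after CLP (log2 fold change 1.26 ± 0.12, adjusted p = 0.000157). The transporters Slc7a5 (1.41 ± 0.13) and Slc7a1 (1.67 ± 0.13) and Atf4 itself (0.82 ± 0.13) rose too, while the stress-linked ATF4 targets Trib3 and Chac1 were not called (-0.19 ± 0.22 and -0.41 ± 0.24).

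The composite element that ATF4 binds, searched as TGATGNAA on both strands of the same windows, was in 5 of 13 tRNA synthetase promoters (38.5%) and 7 of 21 promoters of the amino acid stress list (33.3%), and in 2.32% of all windows. Both lists contain known ATF4 targets, so this share describes the lists and not the response to CLP. The 150 bases before the start sites of 4 members that rose are shown, from RefSeq on GRCm38.p6 and read 5′ to 3′ on the gene's strand, with each match in capitals on whichever strand it lies. They are chr3:50443614-50443763 (minus) for Slc7a11, chr6:7693210-7693359 (minus) for Asns, chr6:55037851-55038000 (plus) for Gars, and chr15:11399659-11399808 (minus) for Tars. Slc7a11 holds 2 matches and the others 1 each.
Slc7a11: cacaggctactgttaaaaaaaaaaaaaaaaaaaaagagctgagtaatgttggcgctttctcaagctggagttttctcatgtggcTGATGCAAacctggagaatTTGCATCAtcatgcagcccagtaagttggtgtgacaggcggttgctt
Asns: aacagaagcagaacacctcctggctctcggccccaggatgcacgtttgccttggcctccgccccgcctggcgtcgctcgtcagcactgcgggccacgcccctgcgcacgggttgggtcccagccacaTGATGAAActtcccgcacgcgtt
Gars: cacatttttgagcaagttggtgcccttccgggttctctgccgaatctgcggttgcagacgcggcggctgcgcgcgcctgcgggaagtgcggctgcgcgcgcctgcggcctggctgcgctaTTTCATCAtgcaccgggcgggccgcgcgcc
Tars: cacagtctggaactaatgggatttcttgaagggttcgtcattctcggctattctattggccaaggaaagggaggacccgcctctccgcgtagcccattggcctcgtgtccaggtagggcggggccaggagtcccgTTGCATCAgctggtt

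The unfolded protein response, which enlarges the folding capacity of the endoplasmic reticulum, was higher in 8 of 21 genes and lower in 0 (median 0.19). Hspa5, the chaperone BiP, had 386, 359 and 369 CPM in the sham libraries and 669, 636 and 577 CPM in the CLP libraries (log2 fold change 0.76 ± 0.09, adjusted p = 0.000433). Xbp1, a transcription factor of this response, rose (log2 fold change 0.91 ± 0.12, adjusted p = 0.000649), and the chaperones Hsp90b1 and Pdia3 were not called (0.14 ± 0.12 and 0.19 ± 0.09). The endoplasmic reticulum stress element, searched as CCAAT and CCACG with 9 bases between them, was in 9 of 19 windows of the list (47.4%) and 0.135% of all windows, and of the 9 genes that carry it Hspa5 alone was called. It was in 0 of 1237 windows of genes higher by at least 2-fold and 3 of 709 windows of those lower by as much. The list holds known genes of this response, so the 47.4% describes the list and not the response to CLP. The Hspa5 promoter is shown with that element in capitals, GRCm38.p6 chr2:34771940-34772089, plus strand.
Hspa5: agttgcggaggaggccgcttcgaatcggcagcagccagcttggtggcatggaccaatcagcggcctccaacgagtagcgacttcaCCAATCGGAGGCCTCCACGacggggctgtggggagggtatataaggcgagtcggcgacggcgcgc

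Genes of the NRF2 programme, which defends against oxidants, rose in 17 of 23 cases and fell in 4 (median 0.76). The catalytic subunit of glutathione synthesis, Gclc, had 120.3, 124 and 136 CPM in sham and 502, 585 and 373 CPM in CLP lung (log2 fold change 1.94 ± 0.16, adjusted p = 0.000101). Thioredoxin reductase, Txnrd1, had 74.3, 80.1 and 80.9 CPM in sham lung and 346, 326 and 206 CPM after CLP (log2 fold change 1.90 ± 0.19, adjusted p = 0.000237). Gclm, the other subunit of the glutathione enzyme, rose by less (log2 fold change 0.91 ± 0.16, adjusted p = 0.00298). Of 22 glutathione transferases, the conjugating enzymes, 8 fell, 0 rose and 14 were not called (median -0.14). Those that fell included Gstm1 (-0.74 ± 0.15) and Mgst3 (-0.78 ± 0.11), and catalase, Cat, fell (log2 fold change -0.50 ± 0.10, adjusted p = 0.00465). The core of the antioxidant response element, searched as TGACNNNGC, was in 8 of 22 windows of the list (36.4%) and 14.3% of all windows. It was in 15.1% of windows of genes higher by at least 2-fold and 13.8% of those lower by as much. The list holds known NRF2 targets, so the 36.4% describes the list and not the response to CLP. Promoters of Gclm and Txnrd1 are shown with the match in capitals, GRCm38.p6 chr3:122245407-122245556 and chr10:82859056-82859205, both plus strand; Txnrd1 has 3 RefSeq windows and 1 is shown.
Gclm: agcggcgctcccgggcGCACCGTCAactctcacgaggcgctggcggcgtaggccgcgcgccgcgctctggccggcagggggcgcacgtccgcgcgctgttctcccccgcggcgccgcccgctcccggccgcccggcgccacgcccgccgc
Txnrd1: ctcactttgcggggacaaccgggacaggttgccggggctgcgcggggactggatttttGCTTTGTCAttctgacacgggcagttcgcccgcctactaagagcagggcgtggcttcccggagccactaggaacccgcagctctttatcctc

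Genes of metal transport and of glycolysis rose more often than they fell. The neutrophil marker sum rose as given above, and its part in these values was not tested. Of 20 genes for iron, zinc and copper, 13 rose and 1 fell. Slc39a14, an importer of zinc and of free iron, had 30.9, 29.5 and 29.4 CPM in the sham libraries and 443, 308 and 265 CPM in the CLP libraries (log2 fold change 3.50 ± 0.20, adjusted p = 3.33e-05). Ferritin heavy chain, Fth1, had 1341, 1443 and 1383 CPM in sham and 3947, 3802 and 2286 CPM in CLP lung (log2 fold change 1.27 ± 0.20, adjusted p = 0.00145), and in both genes every CLP library was above sham. Of 29 genes of glycolysis and hypoxia 19 rose and 3 fell (median 0.75). Slc16a3, the lactate exporter, had 13.5, 15.3 and 18.7 CPM in sham lung and 98.3, 122 and 65.0 CPM after CLP (log2 fold change 2.59 ± 0.24, adjusted p = 0.000244). Pfkfb3, which speeds glycolysis at its phosphofructokinase step, had 211, 242 and 262 CPM in the sham libraries and 862, 750.1 and 578 CPM in the CLP libraries (log2 fold change 1.61 ± 0.16, adjusted p = 0.000174). Hexokinase 2, Hk2, and lactate dehydrogenase, Ldha, rose by 1.24 ± 0.11 and 1.11 ± 0.12 on the log2 scale. The 77 respiratory chain and ATP synthase genes had 9 higher and 4 lower (median 0.06), and 3 and 8 with scaling by library totals, so no direction is given for them. Fatty acid oxidation had 10 of 30 lower and 4 higher. Acacb, the carboxylase that makes the inhibitor of fatty acid entry into mitochondria, fell (log2 fold change -1.84 ± 0.08, adjusted p = 1.14e-05). In the arginine and polyamine list 9 of 18 rose and 2 fell, including rises of Odc1, the enzyme that makes putrescine (1.73 ± 0.20), and Azin1, which frees that enzyme from antizyme (1.04 ± 0.11).

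More clock genes fell than rose, and more corticosteroid targets rose than fell. Of 23 clock genes 9 fell and 3 rose (median -0.35). Hlf, an output factor of the clock, had 49.8, 48.5 and 65.3 CPM in sham and 6.61, 12.7 and 20.8 CPM in CLP lung (log2 fold change -2.04 ± 0.36, adjusted p = 0.00376), and its relative Tef fell (log2 fold change -0.99 ± 0.21, adjusted p = 0.00624, and 0.0501 with no low-count filter). Nfil3, the repressor that competes with these factors for the same DNA, rose (log2 fold change 2.31 ± 0.15, adjusted p = 4.74e-05), and Per1, a core clock gene, was not called (0.12 ± 0.15). The hour of tissue collection is not given in the sources used here. Among 21 genes that glucocorticoids are known to change, 10 rose and 2 fell. Sgk1, a kinase that steers sodium transport, had 171, 174 and 168 CPM in sham lung and 369, 348 and 392 CPM after CLP (log2 fold change 1.11 ± 0.08, adjusted p = 6.26e-05). Dusp1, a phosphatase of MAP kinases, rose (log2 fold change 1.89 ± 0.16, adjusted p = 9.37e-05), and Tsc22d3, or GILZ, among the best-known glucocorticoid targets, was not called (log2 fold change 0.12 ± 0.12, adjusted p = 0.44).

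Markers of other blood cells and of macrophages gave mixed counts. Red cell and precursor genes fell in 6 of 8 cases and rose in 0, and their sum went from 1172 to 1866 CPM in sham to 832 to 1037 CPM in CLP libraries. The beta-globin Hbb-bs had 794, 637 and 986 CPM in the sham libraries and 454, 563 and 484 CPM in the CLP libraries (log2 fold change -0.69 ± 0.16, adjusted p = 0.00937), with reads that may be shared with a near-identical globin gene. Platelet markers were higher in 4 of 13 cases (30.77%, against 23.9% of all genes) and lower in 0, with 3 higher without CLP replicate 1, sham replicate 2 or sham replicate 3 and 8 without CLP replicate 2; the fibrinogen receptor chain Itgb3 rose (log2 fold change 1.67 ± 0.18, adjusted p = 0.000317). Of 13 interstitial macrophage markers 7 rose and 1 fell, and 4 were higher with scaling by library totals. F13a1, the transglutaminase of factor XIII, had 35.3, 33.5 and 53.9 CPM in sham and 337, 360.5 and 216 CPM in CLP lung (log2 fold change 2.90 ± 0.26, adjusted p = 0.000209), and the fractalkine receptor Cx3cr1 fell (log2 fold change -1.54 ± 0.30, adjusted p = 0.00351). Alveolar macrophage markers gave 3 higher and 4 lower of 16, and 0 higher with scaling by library totals; their lectin Siglecf fell (log2 fold change -0.50 ± 0.10, adjusted p = 0.00463). In the lymphoid list 14 of 22 rose, yet Gata3, which defines type 2 lymphocytes and is also found in other cells, had 12.4, 9.58 and 10.7 CPM in sham lung and 2.18, 1.94 and 3.82 CPM after CLP (log2 fold change -2.05 ± 0.25, adjusted p = 0.000449). Cell cycle genes rose in 17 of 33 cases and fell in 5. Top2a, of dividing cells, had 11.6, 10.8 and 14.9 CPM in the sham libraries and 49.9, 31.3 and 28.2 CPM in the CLP libraries (log2 fold change 1.55 ± 0.24, adjusted p = 0.00156), and the inhibitor Cdkn1b fell (log2 fold change -0.87 ± 0.11, adjusted p = 0.000511). Leukocyte precursors divide too, and the neutrophil marker sum moved with these genes as given above; its part in the cell cycle values was not tested.

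The 3 CLP libraries differed more among themselves than the sham libraries did. In pairwise chi-square tests of the counts, the statistic per degree of freedom was 5.28 to 6.33 between sham and 15.7 to 27.5 between CLP libraries. CLP replicate 3 was the one nearest to sham in 2252 of the 3698 higher genes (60.9%) and in 2338 of the 3850 lower genes (60.73%). Without it, 4216 genes were higher and 3795 lower. Acod1, the itaconate-making enzyme of macrophages, was lowest there among CLP libraries, with 5.61, 5.01 and 5.38 CPM in sham and 440.0, 228 and 108 CPM in CLP lung (log2 fold change 5.60 ± 0.60, adjusted p = 0.000757). In Hcar2, the niacin receptor, replicate 3 was again the lowest CLP library, with 5.69, 5.09 and 4.48 CPM in sham lung and 129.6, 80.7 and 28.0 CPM after CLP (log2 fold change 3.97 ± 0.60, adjusted p = 0.00272). Even so, the lowest CLP value of each gene exceeded every sham value, and over all genes the groups did not overlap in 59.7% of those tested. At the other extreme, the steadiest abundant genes varied little over all 6 libraries. Hcfc1, a chromatin cofactor, had 146, 150.1 and 154 CPM in the sham libraries and 151, 150.0 and 147 CPM in the CLP libraries (-0.01 ± 0.07), and Gnb1, a G protein subunit, had 410.0, 398 and 413 CPM in sham and 416, 405 and 400.5 CPM in CLP lung (0.00 ± 0.08).

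The change after CLP was compared between lung and liver in 1 model of all 12 libraries, as the difference of the log2 changes. Of 16111 genes tested, 2856 (17.7%) differed, 1432 with a more positive and 1424 with a more negative change in lung. Among the 3698 genes higher in lung, 699 had a more positive and 245 a more negative change there than in liver, and among the 3850 lower genes 601 had a more negative and 203 a more positive change. Both sets were chosen by their change in the same lung libraries that enter the difference, which tilts these counts toward the lung direction. In the ribosome biogenesis list 15 of 38 genes had a more positive change in lung and 0 a more negative one. For the clock list the counts were 7 and 5 of 23, for vascular tone 5 and 7, and for growth factors and their receptors 4 and 10 of 42. Levels in the next sentences are scaled over all 12 libraries, so lung values differ from those above. Tgfbi, a matrix protein induced by TGF-beta, went from a mean of 59.1 to 228.5 CPM in lung and from 47.2 to 47.0 CPM in liver, a difference in log2 change of 1.96 ± 0.14 (adjusted p = 4.17e-06). Plxna1, a semaphorin receptor, went from 227.5 to 103 CPM in lung and from 20.8 to 36.4 CPM in liver, a difference of -1.95 ± 0.13 (adjusted p = 2.73e-06). Tead1 had means of 166 CPM in sham and 152 CPM in CLP lung, while liver went from 41.6 to 330 CPM, a difference of -3.12 ± 0.26 (adjusted p = 1.11e-05). Type 1 and type 2 cell genes are not compared between the organs, since the CLP liver libraries held lung transcripts, with Sftpc at 4.95 to 9.38 CPM on library totals against 0.301 to 2.07 CPM in sham livers.

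**Figure D5:**
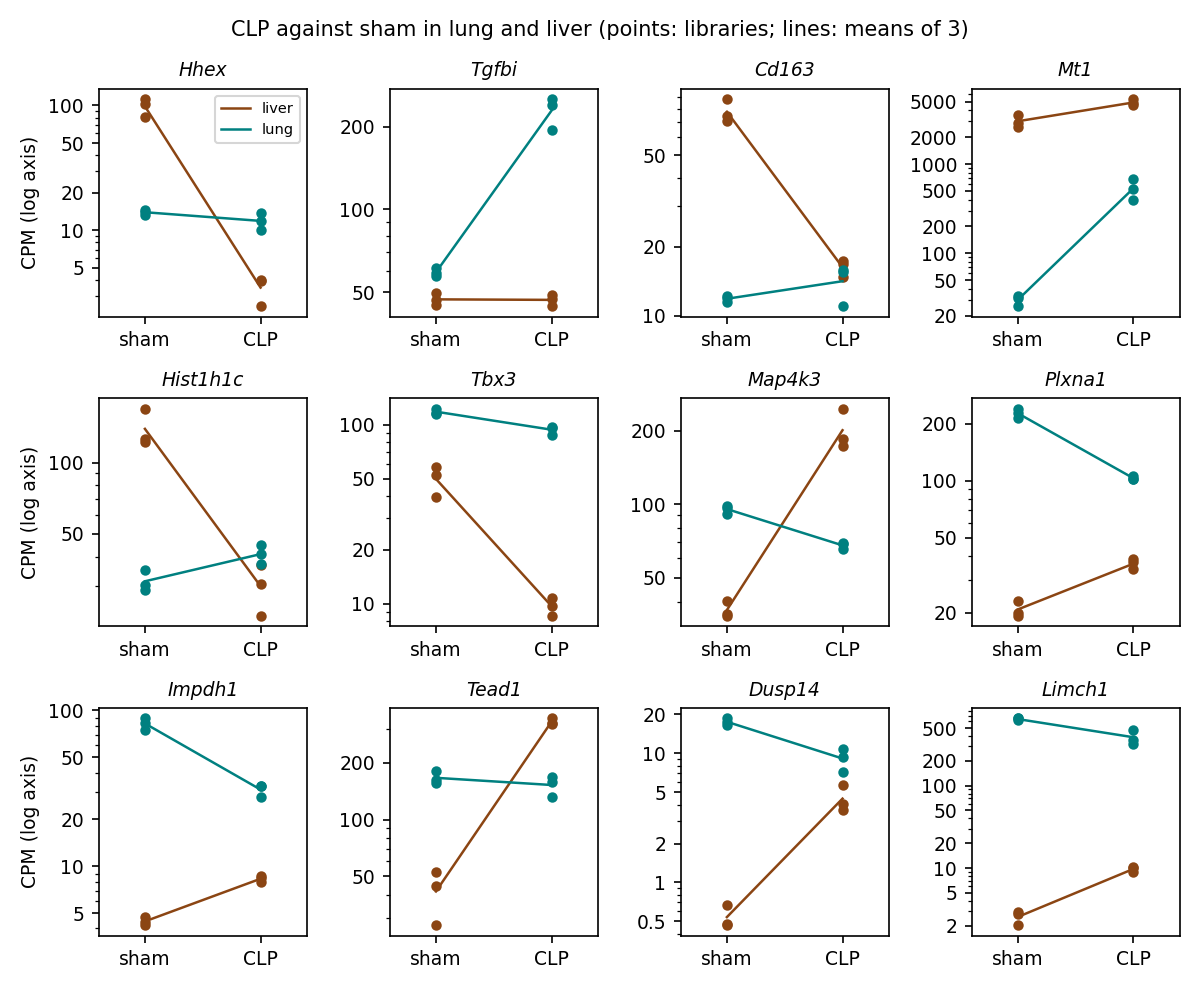
Levels in CPM (log axis, scaled over all 12 libraries) of the 12 named genes whose change differed between the organs; points are libraries and lines join the means of 3. Tgfbi and Mt1 rise in lung, Plxna1 and Limch1 fall in lung and rise in liver, and Hhex, Cd163 and Tead1 move mainly in liver.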

How the data were processed

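RNA of 12 mouse tissue samples, lung and liver after CLP or sham surgery with 3 of each, was sequenced from a stranded library kit, per the labels' protocols. The authors deposited 1 table of whole-number counts per gene, which is the unit used here. Per the submitters' processing notes, FastQC, STAR 2.7.10a, featureCounts and DESeq2 were used with the mm39 genome; whether strand was used in counting is not given in the sources used here, so a gene and an overlapping gene on the opposite strand cannot be told apart.

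From these counts the 6 lung libraries were fitted in edgeR 4.0.16 (R 4.3.3) with filterByExpr (minimum count 10), TMM scaling and the two-sided robust quasi-likelihood test, without a replicate block; calls have a Benjamini-Hochberg adjusted p below 0.05 over all 15441 genes. Levels are TMM-scaled CPM. Standard errors are the size of the log2 fold change divided by the square root of F. Differences between organs came from the same test of the interaction in 12 libraries. The method was run on simulated data with far fewer changed genes and the same variability in all libraries. That run therefore does not measure its error rate in these libraries. Precision is limited by 3 libraries per group; 3 counts correspond to 0.2207 to 0.2655 CPM in lung. Alternatives were limma-voom (limma 3.58.1), DESeq2 1.42.0, other scaling, filters, a replicate block and leaving out each library.

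The 76 gene lists and 50 families, and the members named, were chosen with earlier results of these data known. Named genes were those with the lowest p or the largest gain or loss in CPM, and within each list up to 5 called members per direction with the lowest p, the 3 most abundant, and any member of lists with at most 12 tested; also the steadiest abundant genes, the most variable among CLP libraries, and 12 for the organ difference. Hopx, Ramp2, Tars, Trib3, Chac1 and Gclm lie outside this rule and were named after their values were seen. Among named genes, exons of Adamts4, Adamts9, Dusp1, Irs1, Mmp28 and Pdia3 overlap a protein-coding gene on the opposite strand and those of Gata3 and Ramp2 one on the same strand, by GENCODE on an earlier build, so their values are uncertain by those reads. Many other named genes, such as Ace, Acvrl1, Fgf10, Notch3 and Plxna1, overlap an antisense transcript as Rtkn2 does, and the same limit holds for them. Promoter windows came from RefSeq (GRCm38.p6), covering 11062 of the 14077 distinct symbols of the 14081 tested protein-coding genes; chromosome 18 was left out.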

Additional observations from a re-analysis of the deposited data

Results flagged for a closer look

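The change after CLP differed between lung and liver, by edgeR's test of the difference itself, in 1432 genes toward a more positive and 1424 toward a more negative change in lung. Named genes with such a difference are given as the log2 change in lung minus the log2 change in liver, and each was called with n = 3 libraries in each of the 4 groups. With more positive values in lung were Hhex (4.56), Tgfbi (1.96), Cd163 (2.51), Mt1 (3.45), Hist1h1c (2.60) and Tbx3 (2.02). Hhex, a homeobox factor of hepatocytes and blood, went from a mean of 98.4 to 3.49 CPM in liver and from 14.0 to 11.9 CPM in lung. Cd163, the haemoglobin scavenger receptor of macrophages, went from 77.6 to 16.3 CPM in liver and from 11.9 to 14.1 CPM in lung. Mt1, a metallothionein, went from 30.3 to 536 CPM in lung and from 3010 to 4884 CPM in liver. Toward more negative values in lung were Map4k3 (-2.94), Plxna1 (-1.95), Impdh1 (-2.31), Tead1 (-3.12), Dusp14 (-3.96) and Limch1 (-2.68). Limch1, an actin-binding protein of alveolar fibroblasts, went from 642 to 386 CPM in lung and from 2.56 to 9.78 CPM in liver. Impdh1, an enzyme of guanine nucleotide synthesis, went from 82.5 to 31.1 CPM in lung and from 4.44 to 8.34 CPM in liver. Map4k3, a kinase that answers amino acids, went from 36.9 to 201 CPM in liver and from 95.6 to 67.9 CPM in lung.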

How the results depend on the processing

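Counts of genes called in lung stayed within 1.5 times of the reported 3698 higher and 3850 lower under every alternative run: 2977 and 4847 with library totals, 2929 and 4946 with upper-quartile scaling, 3743 and 3886 without a low-count filter, 3951 and 3512 with a stricter one, 3701 and 3285 with DESeq2, and 3666 and 3899 with limma-voom. Leaving out 1 library at a time gave 2952 to 4216 higher and 2668 to 3795 lower genes. The organ difference ran from 1062 to 1861 more positive and 951 to 1770 more negative genes over the same alternatives. Same-numbered CLP and sham lung libraries did not deviate together (r = -0.0882, -0.086 and -0.0573). In lung and liver CLP libraries each correlated best with its own number (r = 0.177, 0.0747 and 0.295, against -0.229 to 0.0451 for different numbers), and in sham lung and liver libraries only replicate 3 did (r = -0.0507, 0.0276 and 0.144 for equal numbers, -0.13 to 0.0768 for different ones). The labels do not say what a number marks, so a pairing was not assumed; with the replicate block 3344 genes were higher and 3526 lower in lung, and 1439 and 1462 differed between organs. Of 174 called genes named in the text, 164 kept call and direction under every alternative, 10 lost the call under at least 1 and 0 reversed. Of the named genes that were not called, 9 were called under at least 1 alternative, so those non-calls depend on the processing too. The 12 genes named for the organ difference kept call and direction. Many named genes, and all 12 of these, were chosen for a low p in the same libraries, which favours keeping the call. These shares therefore do not describe all called genes. Of 252 counts of list members, higher or lower, 158 stayed within 1.5 times; the others include smaller counts of the lists above, such as 2 to 6 clock genes higher (3 reported), 2 to 5 NRF2 genes lower (4), 1 to 4 fatty acid oxidation genes higher (4), 3 to 5 proteases lower (3), 1 to 5 translation factors lower (3) and 2 to 5 purinergic genes lower (4).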

Other observations

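Of 30 semaphorins, plexins and neuropilins, guidance molecules of vessels and nerves and their receptors, 7 rose and 12 fell. Sema4d, which leukocytes carry, had 16.6, 17.7 and 19.5 CPM in sham lung and 231, 180.0 and 81.4 CPM after CLP (log2 fold change 3.19 ± 0.38, adjusted p = 0.000854), and Sema7a, a membrane-anchored form, had 277, 266 and 223 CPM in the sham libraries and 620.4, 676 and 530.4 CPM in the CLP libraries (log2 fold change 1.25 ± 0.13, adjusted p = 0.000192). The receptor Plxna1 had 364, 342 and 383 CPM in sham and 165, 171 and 166 CPM in CLP lung (log2 fold change -1.12 ± 0.08, adjusted p = 6.17e-05). Of 17 ephrins and Eph receptors 10 fell and 3 rose (6 lower without sham replicate 3, 1 higher with scaling by library totals), with Epha4 lower (log2 fold change -1.28 ± 0.13, adjusted p = 0.000188) and Epha2 higher (log2 fold change 0.68 ± 0.12, adjusted p = 0.00249).

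In the purinergic list 12 of 21 rose and 4 fell. The adenosine receptor Adora2a, known for restraining leukocytes, had 2.44, 2.10 and 3.66 CPM in sham lung and 25.5, 18.9 and 11.3 CPM after CLP (log2 fold change 2.76 ± 0.34, adjusted p = 0.000635). Entpd1, or CD39, which breaks down extracellular ATP, had 193, 201 and 189 CPM in the sham libraries and 520.1, 449.5 and 389.8 CPM in the CLP libraries (log2 fold change 1.22 ± 0.11, adjusted p = 0.000152), while Nt5e, or CD73, which makes adenosine from the product, fell (log2 fold change -0.70 ± 0.15, adjusted p = 0.00515). S1pr1, the sphingosine-1-phosphate receptor that tightens endothelium, had 419, 409.7 and 463 CPM in sham and 924, 966 and 844 CPM in CLP lung (log2 fold change 1.08 ± 0.10, adjusted p = 0.00014), and S1pr2, a receptor with the opposite effect, fell (log2 fold change -0.89 ± 0.12, adjusted p = 0.000649). The adrenergic receptor Adra1a had 15.7, 14.6 and 15.5 CPM in sham lung and 2.33, 2.83 and 3.46 CPM after CLP (log2 fold change -2.41 ± 0.17, adjusted p = 5.07e-05). The leukotriene B4 receptor Ltb4r1 of leukocytes rose (log2 fold change 2.91 ± 0.28, adjusted p = 0.000216), and the neutrophil marker sum given above moved with it; its part was not tested.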
